A study of Homo sapiens with 6 samples.

Results

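Expression of 4 genes of epithelial cell junctions, JUP, PKP3, TJP3 and CDH1, was compared between SNU668 cells with a short hairpin RNA against GPER1 (shGPER) and their controls (shControl). The genes were chosen by name, with earlier results of these data known, and all 4 were found among the 2128 genes listed for each library. SNU668 is an established human gastric cancer line of the signet-ring type, and GPER1 encodes the G protein-coupled estrogen receptor. RNA sequencing was done on 3 shGPER libraries, labelled as GPER knockdown, and on 3 shControl libraries, which the labels also call WT. The labels do not say whether the control cells carried a hairpin or whether several hairpins or clones were used. Nor do they say whether the replicates were separate cultures. The p-values therefore set a group difference against the spread between libraries, and cannot be extended to other hairpins, clones or cultures.

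Epithelial cells are joined by desmosomes, adherens junctions and tight junctions. In the first of these, desmosomal cadherins are tied to keratin filaments by a cytoplasmic plaque of armadillo-repeat proteins and desmoplakin; adherens junctions are built on classical cadherins such as E-cadherin, whose tails bind catenins linked to actin. JUP encodes plakoglobin, an armadillo protein related to beta-catenin that takes part in both kinds of plaque, PKP3 encodes plakophilin 3, an armadillo protein of the desmosomal plaque, and TJP3 encodes ZO-3, a scaffold on the cytoplasmic side of tight junctions. CDH1 encodes E-cadherin, and its inactivation is a known feature of diffuse and signet-ring gastric carcinomas.

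The values were TPM, which count the transcripts of a gene, corrected for length, out of a fixed total per library. The listed genes summed to 46584 to 49148 TPM in shGPER and to 61181 to 64236 TPM in shControl libraries, 4.66 to 6.42% of that total, and read depth is unknown. GPER1, the targeted gene, was at 1.83, 2.41 and 2.47 TPM in shGPER libraries, against 10.41 to 11.04 TPM in shControl libraries. How the listed genes were selected is not stated by the labels or the files. Of 1651 genes at 1 TPM or more in at least 3 libraries, 98.4% were called, 47.8% as higher and 50.6% as lower in shGPER cells (limma on log2(TPM + 1), adjusted p under 0.05). A call of a junction gene is therefore read for its direction and size, and not as evidence that the gene was among few that changed.

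The 3 plaque genes rose in shGPER cells, each by more than 2-fold in mean TPM, whereas CDH1 stayed below 1 TPM in every library. In all, 3 of the 4 genes passed the level for testing, and all 3 were called higher, against 47.8% of the tested genes. Since the choice of genes was made with earlier results known, this share is a description and no test. In these bulk libraries, more transcripts per cell and more cells of an expressing kind cannot be told apart.

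JUP (ENSG00000173801; chromosome 17, 41754604 to 41786931, minus strand, GRCh38) was the most abundant of the 4. It was present at 166.99, 197.68 and 223.85 TPM in shGPER libraries and at 78.01, 80.38 and 77.05 TPM in shControl libraries. All shGPER values were above all shControl values, as for 52.8% of the listed genes, and the lowest of them was 2.08 times the highest shControl value. The means were 196 ± 28.5 TPM in shGPER and 78.5 ± 1.71 TPM in shControl cells (SD, n = 3 each), a ratio of 2.50. The log2 fold change was 1.30 (SE 0.098; limma, adjusted p = 3.77e-06). The spread was unequal, with a coefficient of variation of 14.5% in shGPER and 2.18% in shControl cells. By mean TPM, JUP was above 98.5% of the listed genes in shGPER and above 95.1% in shControl cells.

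PKP3 (ENSG00000184363; chromosome 11, 392614 to 404908, plus strand) was present at 68.14, 83.44 and 82.34 TPM in shGPER libraries and at 33.72, 36.62 and 39.69 TPM in shControl libraries. Here too the groups were apart, with 1.72 times the highest shControl value in the lowest shGPER library. The means were 78.0 ± 8.53 TPM in shGPER and 36.7 ± 2.99 TPM in shControl cells (SD, n = 3 each), and the log2 fold change was 1.065 (SE 0.095; limma, adjusted p = 9.45e-06).

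TJP3 (ENSG00000105289; chromosome 19, 3708109 to 3750813, plus strand) had a much lower level and varied more. It was present at 7.91, 8.99 and 12.44 TPM in shGPER libraries and at 4.09, 2.34 and 2.66 TPM in shControl libraries. The groups did not overlap, although the shControl library 1 stood above the other two controls. The means were 9.78 ± 2.37 TPM in shGPER and 3.03 ± 0.932 TPM in shControl cells (SD, n = 3 each), a ratio of 3.23. The log2 fold change was 1.42 (SE 0.20; limma, adjusted p = 0.000149).

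CDH1 (ENSG00000039068; chromosome 16, 68737225 to 68835548, plus strand) was at 0.11, 0.17 and 0.42 TPM in shGPER libraries and at 0.44, 0.71 and 0.45 TPM in shControl libraries. The highest shGPER value was just under the lowest shControl value, so the groups touched without overlapping; this was so for 42.6% of all listed genes, with shGPER below. The difference in mean log2(TPM + 1) was -0.32 (two-sided exact permutation test, p = 0.1, the lowest p that this design can give), and -0.17 with each library centred on its median (exact p = 0.3). CDH1 was left out of the fit by its low level, and in a fit with no such filter it had an adjusted p of 0.0263 (limma). TPM hold no read counts, so whether these values differ from background was not tested. In the annotation, CDH1 overlaps an antisense gene, AC099314.1, and the pseudogenes RNA5SP429 and FTLP14. Whether the counting used strand is not stated by the labels or the files. JUP, PKP3 and TJP3 overlap no other annotated gene.

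**Figure D1:**
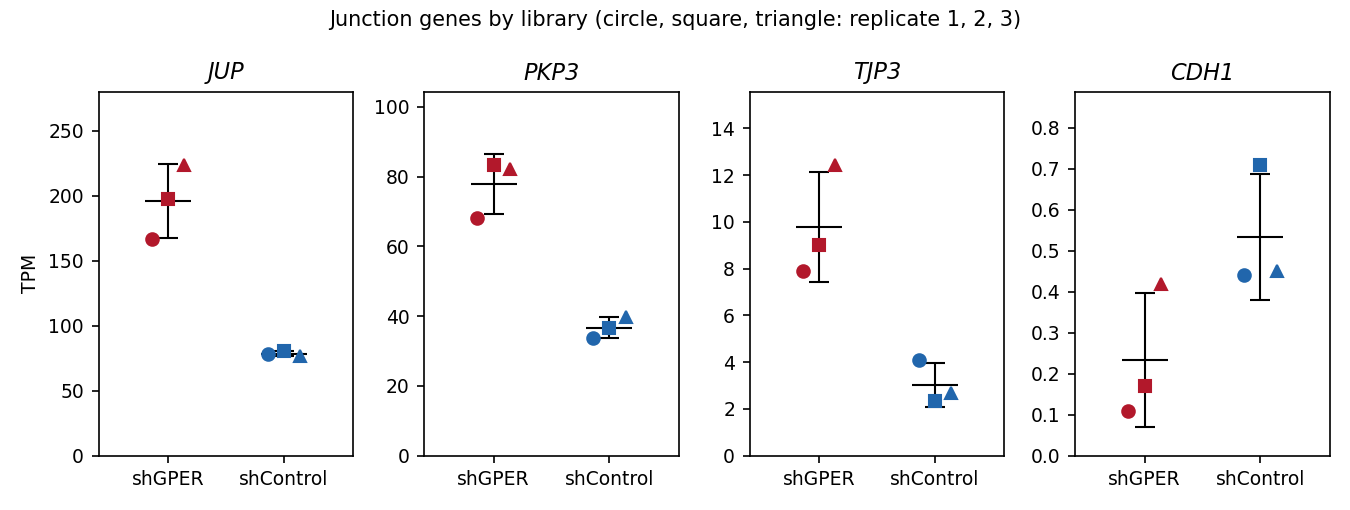
TPM of JUP, PKP3, TJP3 and CDH1 (y axes, each from 0) in the 3 shGPER and the 3 shControl libraries; points are libraries, and the horizontal line and bars are the mean and SD. The shGPER values lie above the shControl values for JUP, PKP3 and TJP3, and below them for CDH1, whose highest value in any library is 0.71 TPM.

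JUP transcripts outnumbered those of CDH1 in every library on this scale corrected for length. The ratio of JUP to CDH1 TPM was 1518, 1163 and 533 in shGPER libraries and 177, 113 and 171 in shControl libraries. The denominators are near 0, so the size of this ratio is poorly determined. It is read only as JUP being far above CDH1 in every library.

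Whether the 3 plaque genes rose by a common factor was asked with ratios of TPM + 1 within a library. The added 1 weighs most on TJP3, at 2.34 to 4.09 TPM in shControl libraries, so its ratios still depend on the scale. The log2 ratio of JUP to PKP3 averaged 1.32 ± 0.103 in shGPER and 1.08 ± 0.127 in shControl libraries (SD, n = 3 each). The shGPER values, 1.23 to 1.43, were all above the shControl values, 0.94 to 1.19. The difference was 0.24 (SE 0.094; two-sided exact permutation test, p = 0.1, adjusted over the 3 pairs 0.3). The ratio of JUP to TJP3 differed by -0.12 (SE 0.21, exact p = 0.6, adjusted p = 0.6), and by 0.020 without shControl library 2. With 0.5 or 0.1 added to the TPM in place of 1, it differed by -0.24 or -0.36. For PKP3 to TJP3 the difference was -0.36 (SE 0.27, exact p = 0.3, adjusted p = 0.45), and ranged from -0.59 without shControl library 1 to -0.23 without shGPER library 3 or shControl library 2. In both pairs with TJP3 the groups overlapped. With 3 libraries in each group no pair could pass the threshold in the exact test, so these values show neither equal nor unequal rises.

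**Figure D2:**
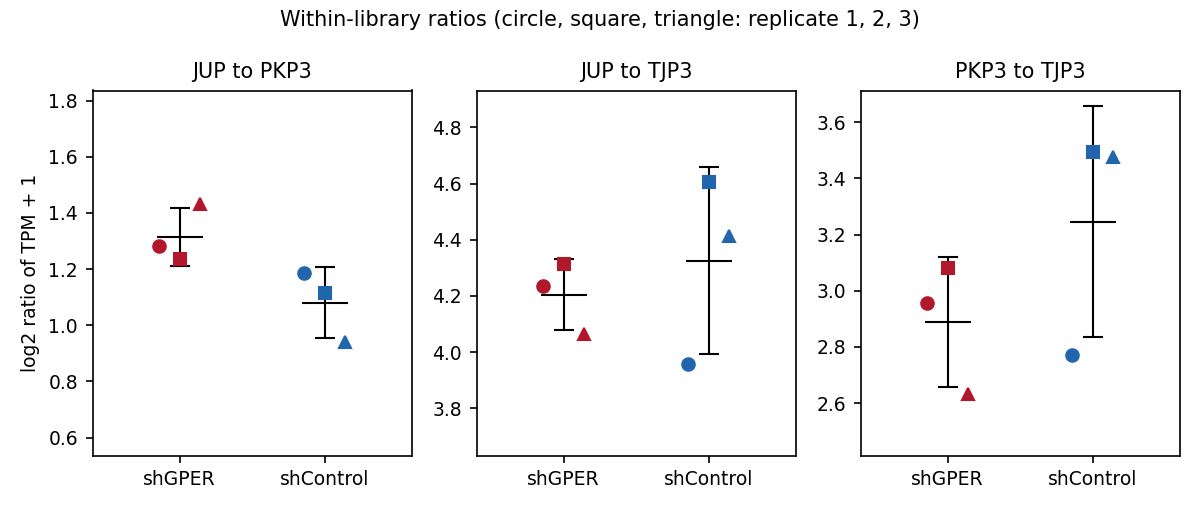
Log2 ratio of TPM + 1 between pairs of plaque genes within each library (y axes, all spanning an equal range); points are libraries, and the horizontal line and bars are the mean and SD. The 3 shGPER values of JUP to PKP3, 1.23 to 1.43, lie above the shControl values, and the groups overlap for both ratios to TJP3.

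The 3 plaque genes also shared a high GC content. The median over annotated transcripts was 63.2% for JUP, 70.0% for PKP3 and 63.0% for TJP3, higher than in 86.1, 99.2 and 85.7% of the listed genes; for CDH1 it was 49.9%. Across the tested genes the fitted slope of the log2 fold change on GC content was 0.84 per 10 percentage points. When each library's trend with GC content was removed, the log2 fold change of JUP shrank to 0.28 and was still called (limma, adjusted p = 0.00251). TJP3 was no longer called (0.41, adjusted p = 0.0885), and PKP3 was neither called nor higher (-0.056, adjusted p = 0.407). In this fit 31.5% of 1626 genes with a GC value were called higher and 31.1% lower. The trend was estimated from a table in which nearly all genes had been called, so the adjusted values set each gene against other changed genes of like GC content. Whether GC content had a part in the rise of these genes was not tested.

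**Figure D3:**
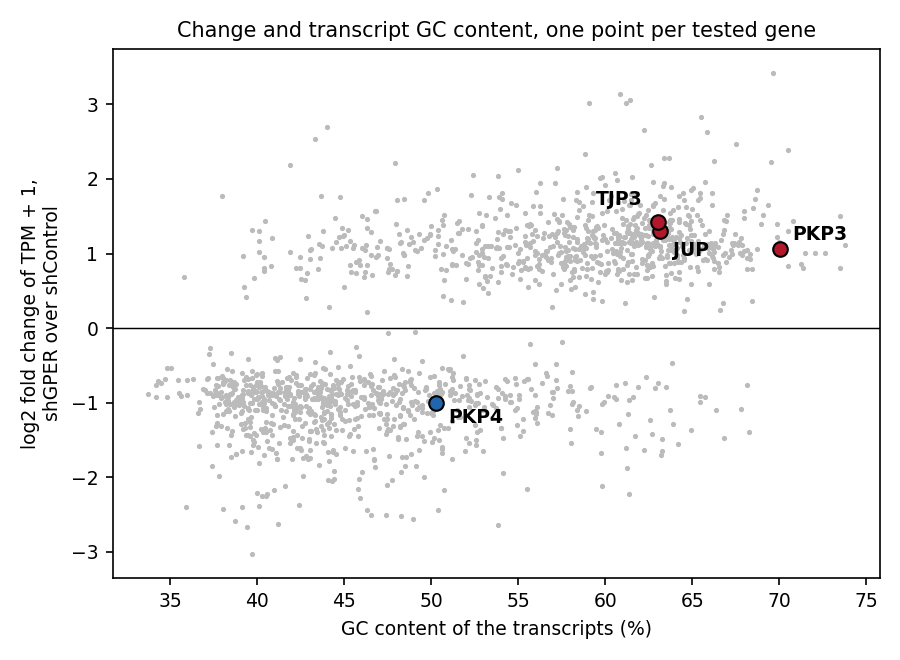
Log2 fold change of TPM + 1 in shGPER over shControl cells (y axis) against transcript GC content in percent (x axis), for tested genes with a GC value, each a grey point; JUP, TJP3 and PKP3 are in red and PKP4 in blue. The 3 plaque genes lie among the GC-rich genes, most of which rose, and few genes lie near a change of 0.

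Library 1 had the lowest value of the 3 shGPER libraries for JUP, PKP3, TJP3 and CDH1. This was so for 71.6% of the 789 genes called higher, and GC-rich genes were lower relative to GC-poor ones in library 1 than in library 3, with a slope of -0.12 per 10 percentage points for the log2 ratio of library 1 to library 3. Without library 1 the log2 fold changes were 1.41 for JUP, 1.16 for PKP3 and 1.55 for TJP3.

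RefSeq gives alternative promoters for JUP and TJP3, and these are shown (GRCh38.p14). Each window runs from 250 bases before to 50 after the start site, written in the direction of transcription. No promoter of PKP3 or CDH1 was among the sequences at hand, so theirs were not examined. Capitals mark CACCTG or its reverse complement CAGGTG, the E-box core bound by the SNAI and ZEB repressors of epithelial genes. The JUP promoters are at chr17:41786662-41786961 (upstream) and chr17:41785927-41786226 (downstream), both on the minus strand with 735 bases between start sites. Those of TJP3 are at chr19:3708134-3708433 (upstream) and chr19:3721487-3721786 (downstream), on the plus strand with 13353 bases between start sites.
JUP upstream: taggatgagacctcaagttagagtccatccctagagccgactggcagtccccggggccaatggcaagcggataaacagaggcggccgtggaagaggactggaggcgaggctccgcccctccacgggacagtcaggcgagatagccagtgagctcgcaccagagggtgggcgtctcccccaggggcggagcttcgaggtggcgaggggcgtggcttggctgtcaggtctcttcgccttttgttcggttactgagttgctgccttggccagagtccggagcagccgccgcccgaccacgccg
JUP downstream: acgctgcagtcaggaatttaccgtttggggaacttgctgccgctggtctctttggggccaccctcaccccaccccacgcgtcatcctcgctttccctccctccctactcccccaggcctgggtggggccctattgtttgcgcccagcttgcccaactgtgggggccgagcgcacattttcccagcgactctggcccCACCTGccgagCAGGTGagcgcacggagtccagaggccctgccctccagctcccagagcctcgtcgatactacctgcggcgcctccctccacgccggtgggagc
TJP3 upstream: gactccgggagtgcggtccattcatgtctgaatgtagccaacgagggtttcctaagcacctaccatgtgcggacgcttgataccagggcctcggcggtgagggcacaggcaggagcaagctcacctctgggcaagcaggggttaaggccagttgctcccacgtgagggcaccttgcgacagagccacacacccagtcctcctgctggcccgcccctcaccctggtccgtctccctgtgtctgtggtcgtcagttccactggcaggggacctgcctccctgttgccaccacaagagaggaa
TJP3 downstream: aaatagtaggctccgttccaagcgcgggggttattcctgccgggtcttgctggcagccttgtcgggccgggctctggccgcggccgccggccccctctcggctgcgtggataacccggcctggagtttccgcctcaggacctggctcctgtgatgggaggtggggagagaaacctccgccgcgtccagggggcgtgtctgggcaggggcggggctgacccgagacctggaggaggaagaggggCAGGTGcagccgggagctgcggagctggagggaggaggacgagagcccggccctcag

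In both genes the downstream promoter held the marked core and the upstream one did not. The JUP downstream promoter had 2 copies, which start at positions -54 and -43 relative to the start site, and that of TJP3 had 1 copy at position -7. The core, on either strand, was found in 20.6% of 35116 RefSeq promoters of this length. The wider E-box CANNTG, which includes the core, was found in 68.7% of promoters; the JUP downstream and TJP3 upstream windows had 3 copies each, and the JUP upstream window had none. The GC box GGGCGG, on either strand, had 3 copies in the JUP upstream window and 1 in each TJP3 window, and 45.0% of promoters had it. None of the 4 windows held TATAAA on either strand, found in 11.5% of promoters. These matches describe the letters of the windows. TPM per gene do not say from which promoter the transcripts came.

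For the junctions as a whole, 92 names were put on lists of desmosome, adherens junction, tight junction, polarity and hemidesmosome genes, the 4 genes above included. The table held 15 of them, and 77 were not analysed here, among them the desmosomal cadherins, desmoplakin and the catenins. Of 12 tested, JUP, PKP3 and TJP3 among them, 9 rose and 3 fell, where 47.8% of all tested genes were called higher and 50.6% lower. The lists were chosen with earlier results of these data known, so these shares are a description and no test of junction genes. The 12 tested genes had a median log2 fold change of 1.044, against -0.49 over all tested genes. With the GC trend removed 5 were higher and 2 lower, where 31.5% of all genes in that fit were higher and 31.1% lower, with a median of 0.23, against 0.0066 over all tested genes.

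The desmosome list held JUP, PKP3 and PKP4, 3 of 14 names. PKP4 encodes p0071, an armadillo protein related to the plakophilins that is found at desmosomes and adherens junctions, and it fell. It was at 12.84, 13.19 and 16.26 TPM in shGPER libraries and at 28.99, 28.96 and 29.10 TPM in shControl libraries, with no overlap. The log2 fold change was -0.9987 (SE 0.093; limma, adjusted p = 1.22e-05), and PKP4 stayed lower without the GC trend (-0.78). PKP3 rose and PKP4 fell in the TPM as deposited; without the GC trend PKP3 was not called and its value, -0.056, had the sign of PKP4. PKP3 TPM were 5.06 to 6.33 times PKP4 TPM in shGPER and 1.16 to 1.36 times in shControl libraries.

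Of 16 adherens junction names the table held CDH1, NECTIN2 and NECTIN4. Both nectins, immunoglobulin-like adhesion molecules that bind afadin, rose. NECTIN2 averaged 22.5 ± 0.769 TPM in shGPER and 10.7 ± 1.89 TPM in shControl cells (SD, n = 3 each; log2 fold change 1.02, limma, adjusted p = 3.48e-05), and lost its call without the GC trend (0.11). NECTIN4 averaged 7.36 ± 1.296 TPM in shGPER and 2.51 ± 0.74 TPM in shControl cells (log2 fold change 1.26, adjusted p = 0.000171), and stayed higher without the GC trend (0.79).

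Of 34 tight junction names 5 were listed. Besides TJP3, F11R rose; it encodes the adhesion molecule JAM-A, and was at 12.90 to 13.70 TPM in shGPER and 6.06 to 6.33 TPM in shControl libraries. Its log2 fold change was 0.99 (limma, adjusted p = 4.39e-06), and 1.16 without the GC trend. CLDN12, a claudin, fell to 7.05 to 7.68 TPM in shGPER libraries, against 12.18 to 13.90 TPM in shControl libraries, and lost its call without the GC trend (0.056). AMOTL2, an angiomotin-family scaffold, fell to 8.83 to 11.14 TPM in shGPER, against 20.18 to 21.50 TPM in shControl libraries. MARVELD3, a membrane protein of tight junctions, was below the level for testing, at 0.94 to 1.69 TPM in shGPER and 0.32 to 0.66 TPM in shControl libraries.

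The 3 listed members of 19 polarity names rose. LLGL2, a homolog of the fly polarity protein lethal giant larvae, averaged 48.0 ± 5.35 TPM in shGPER and 20.1 ± 1.72 TPM in shControl cells (SD, n = 3 each; log2 fold change 1.21, limma, adjusted p = 5.33e-06; 0.18 without the GC trend, adjusted p = 0.0403). DLG5, a scaffold of the membrane-associated guanylate kinase family, averaged 41.9 ± 6.86 TPM in shGPER and 18.1 ± 0.165 TPM in shControl cells (log2 fold change 1.16; 0.53 without the GC trend). PARD6G, a PAR6 polarity protein, was at 1.08 to 1.76 TPM in shGPER and 0.78 to 1.13 TPM in shControl libraries, which overlap. Its call (log2 fold change 0.35, adjusted p = 0.0386) was lost without shGPER library 1 or 2 or shControl library 1 or 3, and without the GC trend.

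**Figure D4:**
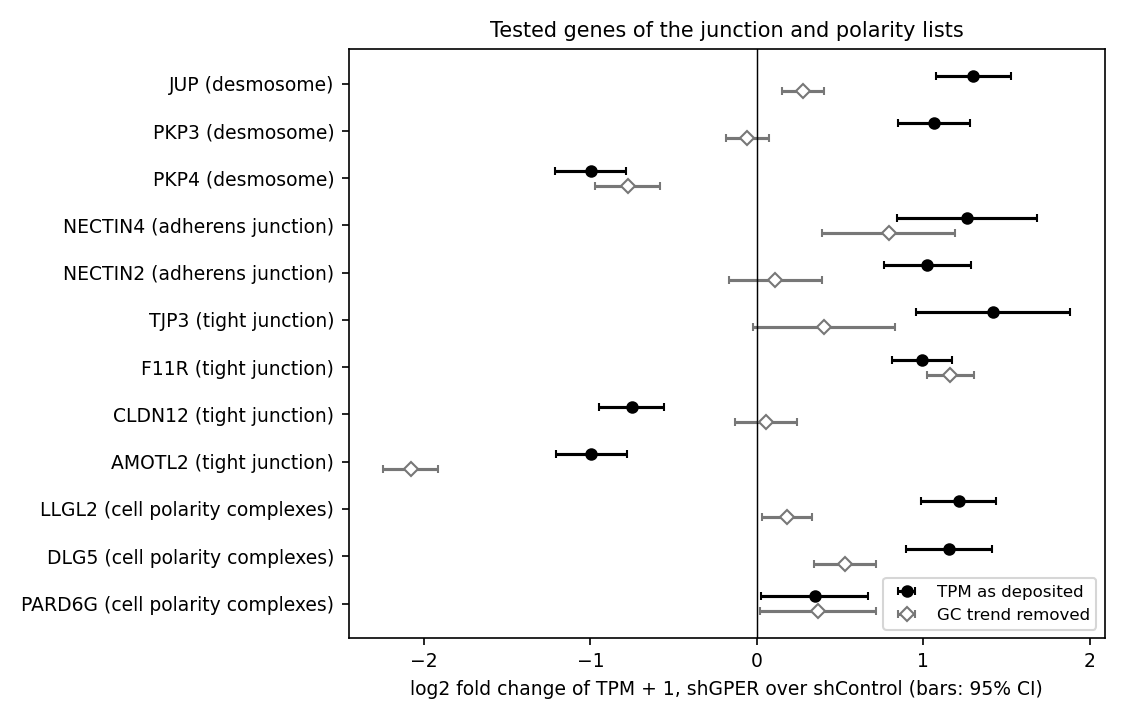
Log2 fold change of TPM + 1 in shGPER over shControl cells (x axis) for the 12 tested genes of the junction and polarity lists (rows); filled circles are the TPM as deposited, open diamonds the values with the GC trend removed, and bars are 95% confidence intervals from limma. JUP, NECTIN4, F11R, LLGL2 and DLG5 stay called higher and PKP4 and AMOTL2 lower in both.

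Keratins anchor at desmosomes, and of 22 names of keratins and their linkers the table held KRT17, at 0.97 to 2.61 TPM in shGPER and 0.08 to 0.56 TPM in shControl libraries, below the level for testing. Of 17 epithelial regulators, KLF5, a zinc finger factor of gastrointestinal epithelia, fell to 16.7 ± 1.049 TPM in shGPER cells, against 37.7 ± 2.03 TPM in shControl cells (SD, n = 3 each; log2 fold change -1.13, limma, adjusted p = 1.76e-06). ST14, the membrane protease matriptase, was at 0.48 to 0.83 TPM in shGPER and 0.05 to 0.09 TPM in shControl libraries. Of 11 transcription factors of the epithelial-mesenchymal transition, TCF3 was listed. It encodes the E-box binding proteins E12 and E47, known as repressors of CDH1, and rose to 62.55, 82.24 and 79.84 TPM in shGPER libraries, against 20.41, 20.81 and 21.54 TPM in shControl libraries (log2 fold change 1.78, adjusted p = 1.05e-06; 0.82 without the GC trend). SNAI1, SNAI2, ZEB1, ZEB2 and TWIST1 were not analysed here.

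Other cadherins went both ways. CDH5, the cadherin of endothelial junctions, rose to 6.19 to 7.99 TPM in shGPER libraries, against 1.43 to 1.96 TPM in shControl libraries, a log2 fold change of 1.65 (limma, adjusted p = 5.13e-06). CDH10, a cadherin known from the nervous system, fell to 4.86 to 5.14 TPM in shGPER, against 10.44 to 11.93 TPM in shControl libraries, and lost its call without the GC trend (-0.15). CDH6, below the level for testing, was at 0.85 to 1.20 TPM in shGPER and 0.22 to 0.38 TPM in shControl libraries. DCHS1, a large cadherin, was at 0.21 to 0.29 TPM in shGPER and 0.07 to 0.08 TPM in shControl libraries. CDH5, at 1.43 TPM or more, was thus above CDH1 in all 6 libraries.

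Plakoglobin shares some regulators with beta-catenin, and a list of 16 names for the regulation of both held partners and other genes besides regulators. The table held 4 of them. AXIN1, the scaffold of the complex that marks beta-catenin for degradation, rose to 43.8 ± 7.52 TPM in shGPER cells, against 18.1 ± 1.45 TPM in shControl cells (SD, n = 3 each; log2 fold change 1.22, limma, adjusted p = 2.08e-05), and lost its call without the GC trend (0.19). TCF7L1, a transcription factor partner of beta-catenin, rose to 1.01 to 1.22 TPM in shGPER, against 0.07 to 0.24 TPM in shControl libraries; it passed the filter through its shGPER values alone, so its direction was fixed. CCND1, cyclin D1, fell to 44.2 TPM in shGPER cells, against 95.5 TPM in shControl cells. APC2 was below the level for testing, at 0.68 to 1.18 TPM in shGPER and 0.33 to 0.35 TPM in shControl libraries.

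Of 20 gastric epithelial markers the table held TFF1 and CDX2, so the labelled cell type could not be checked. TFF1 was at 2.91, 2.24 and 0.26 TPM in shGPER libraries and at 4.64, 4.44 and 6.22 TPM in shControl libraries. CDX2 went the other way, at 0.82 to 1.39 TPM in shGPER and 0.3 to 0.47 TPM in shControl libraries. It was below the level for testing. Listed markers of other cell types did not all move in one direction. The summed TPM of the 4 listed of 11 neuroendocrine markers were 64.2 to 65.3 in shGPER and 6.82 to 7.41 in shControl libraries. Those of the 5 listed of 9 fibroblast markers were 31.9 to 33.3 TPM in shGPER and 7.04 to 9.92 TPM in shControl libraries. Of these sums COL1A1 made up 28.77 to 30.12 TPM in shGPER and 2.06 to 3.79 TPM in shControl libraries, while LUM and DCN fell, with calls that were lost without the GC trend. Those of 2 listed of 7 endothelial markers, CDH5 and ERG, were 7.52 to 8.71 TPM in shGPER and 2.09 to 2.52 TPM in shControl libraries. CDH5 made up 6.19 to 7.99 TPM of these sums in shGPER and 1.43 to 1.96 TPM in shControl libraries. ERG overlapped between the groups and was not called (log2 fold change 0.21, limma, adjusted p = 0.218). Without the GC trend ERG was called higher (0.86). No listed marker was at 0 in all libraries, and no leukocyte marker was listed. Of 14 mesenchymal markers 4 were listed, and COL1A1 and TAGLN rose, TAGLN to 1.98 to 4.47 TPM in shGPER against 0.67 to 0.74 TPM in shControl libraries, with its direction fixed by the filter. ACTA2 and COL1A2 were below the level for testing, with all shGPER values above all shControl values. ACTA2 was at 0.57 to 1.22 TPM in shGPER and 0.17 to 0.37 TPM in shControl libraries. COL1A2 was at 0.4 to 0.7 TPM in shGPER and 0.28 to 0.36 TPM in shControl libraries. The part of such markers in the rise of the plaque genes was not tested.

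The genes whose values ran most like those of each plaque gene were found by the root mean square difference of log2(TPM + 1), centred on the mean of the 6 libraries, among 1129 genes whose mean reached 5 TPM in either group. For JUP they were SEZ6L2, PPP1R18 and CASKIN2, at differences of 0.031, 0.038 and 0.041; SEZ6L2 had 31.95, 39.46 and 44.11 TPM in shGPER libraries and 15.06, 15.73 and 15.4 TPM in shControl libraries. For PKP3 they were ALDH16A1, ABL1 and TRIOBP, at 0.035, 0.036 and 0.046. For TJP3 they were TRPM4, ZNF317 and SRRM3, at 0.12, 0.13 and 0.14, so that its pattern had no match as close. All 9 were called higher in shGPER cells, which follows from their choice by likeness to genes that rose, and none is on the junction lists. Without the GC trend ALDH16A1 (-0.0094), TRIOBP (0.054) and TRPM4 (0.33) lost their calls, and the others kept theirs.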

How the data were processed

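Values were the TPM per gene deposited by the authors, in a table per library, for 3 shGPER and 3 shControl libraries grouped by title. Libraries were stranded mRNA, per the labels' protocols; fastp, HISAT2, RSEM and hg38 are named, without versions or settings, per the submitters' processing notes. TPM are shares of a fixed total and keep no depth, so no count model, counting error or detection limit is given.

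Log2(TPM + 1) of the 1651 genes with at least 1 TPM in at least 3 libraries was compared by limma (version 3.58.1, R 4.3.3) as shGPER minus shControl (variance prior with an intensity trend, no covariate; two-sided, Benjamini-Hochberg over all tested genes, threshold 0.05), which was tested on simulated data. A fold change on this scale understates that of genes with low TPM. Median centring would remove a shift of -0.15 between the groups and gave 1.45, 1.22 and 1.57 for JUP, PKP3 and TJP3. CDH1 and ratios were tested by exact permutation over libraries. Positions and GC content come from GENCODE 29 (GRCh38), which gave GC values for 1626 tested genes, and promoters from RefSeq (GRCh38.p14). To remove the GC trend, a natural spline of GC content (3 degrees of freedom) was fitted within each library to values centred by gene and was subtracted.

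The genes and lists were chosen with earlier results of these data known. Of each list, all listed members are named where it has 6 or fewer, except 1 that is not reported here; the most similar genes are the 3 nearest to each plaque gene. Alternatives were other pseudocounts, filters, scalings and variance priors, a replicate block, each library left out, and removal of the GC trend.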

Additional observations from a re-analysis of the deposited data

How the results depend on the processing

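JUP kept its direction and call under every alternative run (each library left out, the replicate block, both removals of the GC trend, quantile and median scaling, either filter, either pseudocount, and a robust or a trend-free prior), with values of 0.28 to 1.57. PKP3 and TJP3 did so except for the removal of the GC trend, which gave -0.056 and 0.41. With the GC content of the longest transcript, an alternative chosen after seeing the data, they were -0.064 and 0.40, JUP was 0.35, and 495 genes were called higher and 516 lower. As reported, 789 genes were called higher and 836 lower; the median GC content gave 512 and 506, and a filter of 5 TPM, which tests fewer genes, gave 438 higher. CDH1 stayed lower throughout, at -0.24 to -0.42 with each library left out, -1.01 with a pseudocount of 0.1 and -0.17 with median centring (exact p = 0.3); its difference of -0.32 passed the threshold in the unfiltered fit, whose variance is shared over all genes. The ratio of JUP to TJP3 ranged from -0.31 to 0.020 with each library left out, and was -0.24 and -0.36 with pseudocounts of 0.5 and 0.1. Directions turned for CLDN12 (0.056 and 0.15), LUM (0.23 and 0.24), DCN (0.22 and 0.25) and AJM1 (-0.0995 and -0.20) with the GC trend of the median and of the longest transcript removed, for ALDH16A1 with the first (-0.0094) and for TCF7L1 with the second (-0.085). With quantile normalization they turned for PARD6G (-0.10) and ERG (-0.23). The cause of these changes was not tested.

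Same-numbered libraries did not deviate together (correlations of 0.033, -0.087 and 0.013), so the numbers were not taken to pair them. The replicate block gave 790 genes higher and 832 lower and left the log2 fold changes of JUP, PKP3 and TJP3 at 1.30, 1.065 and 1.42, all still called.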

Other observations

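The annotation terms in the deposited table gave wider sets of junction genes, chosen after the data were seen and described without a test. The term desmosome was carried by 4 genes, of which JUP, PKP3 and B4GALT1 rose and PKP4 fell. B4GALT1, a galactosyltransferase that also acts at the cell surface, averaged 93.8 ± 5.61 TPM in shGPER and 23.5 ± 1.18 TPM in shControl cells (SD, n = 3 each). Over all tested genes 47.8% were called higher and 50.6% lower, with a median log2 fold change of -0.49; without the GC trend 31.5% were higher and 31.1% lower. Of 12 tested genes with the term cell-cell adherens junction 5 rose and 7 fell (median -0.73), and without the GC trend 4 were higher and 4 lower. Of 15 with the term bicellular tight junction 10 rose and 5 fell (median 1.20), and without the GC trend 6 were higher and 4 lower. Of 18 with the term cell-cell junction 12 rose and 5 fell (median 1.044), and without the GC trend 7 were higher and 6 lower. Of 33 with the term cadherin binding 16 rose and 17 fell (median -0.74), and without the GC trend 10 were higher and 11 lower. The counts that rose for cell-cell junction and for cadherin binding each include 2 genes under 1 TPM in all shControl libraries, whose direction was fixed by the filter.

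EPPK1, VEZT and AJM1 are outside the lists and were named after their values were seen. EPPK1, the keratin-binding plakin epiplakin, was at 17.38, 24.41 and 23.10 TPM in shGPER libraries and at 5.76, 6.43 and 6.83 TPM in shControl libraries (log2 fold change 1.61, limma, adjusted p = 5.73e-06; 0.49 without the GC trend). VEZT, the adherens junction membrane protein vezatin, was at 28.16, 27.95 and 30.42 TPM in shGPER libraries and at 64.88, 61.37 and 68.85 TPM in shControl libraries (log2 fold change -1.15, adjusted p = 1.08e-06; -0.31 without the GC trend). AJM1, an apical junction component, was at 5.27 to 6.51 TPM in shGPER and 2.39 to 2.51 TPM in shControl libraries, and lost its call without the GC trend.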
